A study of Mus musculus with 15 samples.

Results

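The 10 genes described here encode surface proteins by which mesenchymal stromal cells (MSCs) are recognized: the PDGF receptors Pdgfra and Pdgfrb and the markers Ly6a, Thy1, Eng, Nt5e, Cd44, Cd34, Mcam and Alcam. They were taken by symbol from the table of read counts, and all 10 were found among its 56832 genes. All 10 also passed the filter on low counts that left 17204 genes for testing. The counts come from bulk RNA-sequencing of MSCs cultured from the bone marrow of mice that were 16 weeks old and of C57BL/6J background. The 2 genotypes were TauT+/+ and TauT-/-, the latter with a global loss of Slc6a6, which encodes the taurine transporter TauT. There were 4 male-labelled and 3 female-labelled TauT+/+ libraries and 4 male-labelled and 4 female-labelled TauT-/- libraries. All of them came from marrow of the long bones that was grown in serum on dishes coated with collagen, so both genotypes share the culture. The design text describes the cultures as sorted with magnets for cells without CD45, while the methods name either magnetic depletion, which took out CD31-positive cells as well, or flow sorting, without saying which was used for which culture. In a global knockout the gene is lost in every cell of the mouse, and a difference in the culture need not begin in the MSCs. The labels do not say whether the libraries of a group came from separate animals, and p-values measure the spread between these libraries.

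MSCs have no single defining surface protein, and they are described by a combination of several. PDGFRα and PDGFRβ are receptor tyrosine kinases. They dimerize when PDGF ligands bind and drive proliferation and migration of mesenchymal cells. In mouse marrow PDGFRα with SCA-1, the product of Ly6a, marks a primitive stromal population near arterioles, while CD44, CD73 (Nt5e), CD90 (Thy1), CD105 (Eng), CD146 (Mcam) and CD166 (Alcam) are used to characterize cultured MSCs. CD34 is best known from hematopoietic stem cells and endothelium and is often lost when stromal cells are cultured. CD31 and CD45 are the endothelial and leukocyte markers by which other cells are removed.

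Several libraries stood apart from what their labels say. Total counts were 69764291 to 101575071 in the 8 male-labelled and 12761107 to 20781070 in the 7 female-labelled libraries, so labelled sex and depth cannot be told apart. Sex-linked transcripts, Xist from the inactive X chromosome and Ddx3y from the Y chromosome, contradicted the label of 3 libraries, the male-labelled TauT+/+ library 1, the male-labelled TauT-/- library 1 and the female-labelled TauT+/+ library 3. Among all 105 pairs of libraries, 2 pairs were much closer than the others: the male-labelled and female-labelled TauT-/- libraries 1, with a spread of the log2 ratio over genes of 0.098, and the male-labelled and female-labelled TauT+/+ libraries 1, with 0.108. The next pair had 0.253. Counting error alone would give 0.055 and 0.058 for the 2 close pairs, which covers repeated sequencing of a library but not a second library made from the same RNA. The male-labelled library of each close pair had Xist at the level of its female-labelled partner, at 841 and 773 CPM (counts scaled to library size) for TauT+/+ and 728 and 911 CPM for TauT-/-. Whether each pair is 1 sample was not tested, the pairs enter as labelled and may count 1 sample of each genotype more than once, and results are also given with each pair reduced to 1 library. Libraries labelled TauT+/+ had 1571 ± 712 CPM of Slc6a6 (SD, n = 7) and those labelled TauT-/- had 806 ± 399 CPM (SD, n = 8). The genotypes overlapped for it (edgeR log2 fold change -0.97, SE 0.36, adjusted p = 0.125), and all genotypes are therefore those of the labels. The lowest TauT+/+ values were 592 and 830 CPM, in male-labelled libraries 4 and 3. The highest TauT-/- values were 1520.5 CPM in female-labelled library 4 and 1251 CPM in male-labelled library 2. By the spread over genes, the male-labelled TauT+/+ library 3 was closest to the male-labelled TauT-/- library 3, at 0.256. Whether any genotype label is wrong was not tested.

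The DNA just before 1 annotated transcription start is shown for 3 of the genes, because Pdgfra had lower and Cd44 and Alcam had higher mean levels in TauT-/- than in TauT+/+ libraries. Each run is the 250 bases before a start annotated by RefSeq, taken from a table on GRCm38 and placed on GRCm39 by an exact match of the sequence. Capitals mark the GC box GGGCGG on either strand, the element that Sp1 family factors bind.
Pdgfra promoter, chr5:75312662-75312911, plus strand: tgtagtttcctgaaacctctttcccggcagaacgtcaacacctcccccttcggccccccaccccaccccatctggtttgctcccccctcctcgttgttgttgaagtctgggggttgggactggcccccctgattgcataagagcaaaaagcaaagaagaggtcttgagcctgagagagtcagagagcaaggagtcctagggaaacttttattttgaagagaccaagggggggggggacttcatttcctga
Cd44 promoter, chr2:102732011-102732260, minus strand: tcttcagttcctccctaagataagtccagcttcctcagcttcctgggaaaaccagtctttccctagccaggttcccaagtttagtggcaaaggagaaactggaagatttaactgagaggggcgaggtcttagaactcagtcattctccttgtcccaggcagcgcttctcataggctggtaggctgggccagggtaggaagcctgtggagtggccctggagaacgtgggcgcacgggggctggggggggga
Alcam promoter, chr16:52273445-52273694, minus strand: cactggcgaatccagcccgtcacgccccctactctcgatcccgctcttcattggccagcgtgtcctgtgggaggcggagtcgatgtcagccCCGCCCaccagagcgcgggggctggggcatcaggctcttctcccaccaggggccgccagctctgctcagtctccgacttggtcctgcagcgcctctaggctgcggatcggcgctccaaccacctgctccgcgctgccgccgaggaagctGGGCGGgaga
The Alcam window holds 2 GC boxes that do not overlap, and the other 2 windows hold 0. Of 32851 mouse promoter windows of this length, 32.7% hold at least 1 GC box on either strand. The AP-1 element TGACTCA, found in 4.46% of those windows, and the TATA box TATAAA, found in 12.4%, are in none of the 3, on either strand. GC content was 54.4% for Pdgfra, 56.4% for Cd44 and 69.2% for Alcam, against a median of 52.4% over all windows. The Alcam start used by RefSeq lies 993 bases from the start of the canonical transcript in GENCODE M39, while those of Pdgfra and Cd44 lie 10 and 0 bases away. The Alcam window, with its GC boxes, lies inside the annotated gene, which begins at 52274437 on the minus strand, and not upstream of it. The Pdgfra window also lies inside the annotated span of its gene, which begins at 75311994.

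To compare levels between genes, CPM, scaled by edgeR's TMM factors, was divided by the length of each gene's annotated exons in kb. Ly6a and Pdgfrb had the highest levels per kb, and Nt5e and Cd34 were near the bottom of the range in both genotypes. Ly6a had a median of 62.8 CPM per kb over the 15 libraries, followed by Pdgfrb with 56.7, Cd44 with 30.6, Alcam with 18.3, Mcam with 15.5, Eng with 14.8, Pdgfra with 11.1, Thy1 with 5.28, Nt5e with 0.302 and Cd34 with 0.178. Neighbours in this order overlapped in every case. Ly6a was above Pdgfrb in 7 of 15 libraries, Alcam above Mcam in 8 and Mcam above Eng in 7, so the order of these pairs is not resolved. Thy1 was above Nt5e in 14 of 15 libraries. By genotype means the order of the genes in the middle differed. Alcam ranked 8 of 10 in TauT+/+ libraries at 11.0 ± 5.78 CPM per kb (SD, n = 7) and 4 in TauT-/- libraries at 30.1 ± 14.9 CPM per kb (SD, n = 8). Eng ranked 3 in TauT+/+ libraries at 37.0 ± 21.3 CPM per kb (SD, n = 7) and 6 in TauT-/- libraries at 11.8 ± 15.1 CPM per kb (SD, n = 8).

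**Figure D1:**
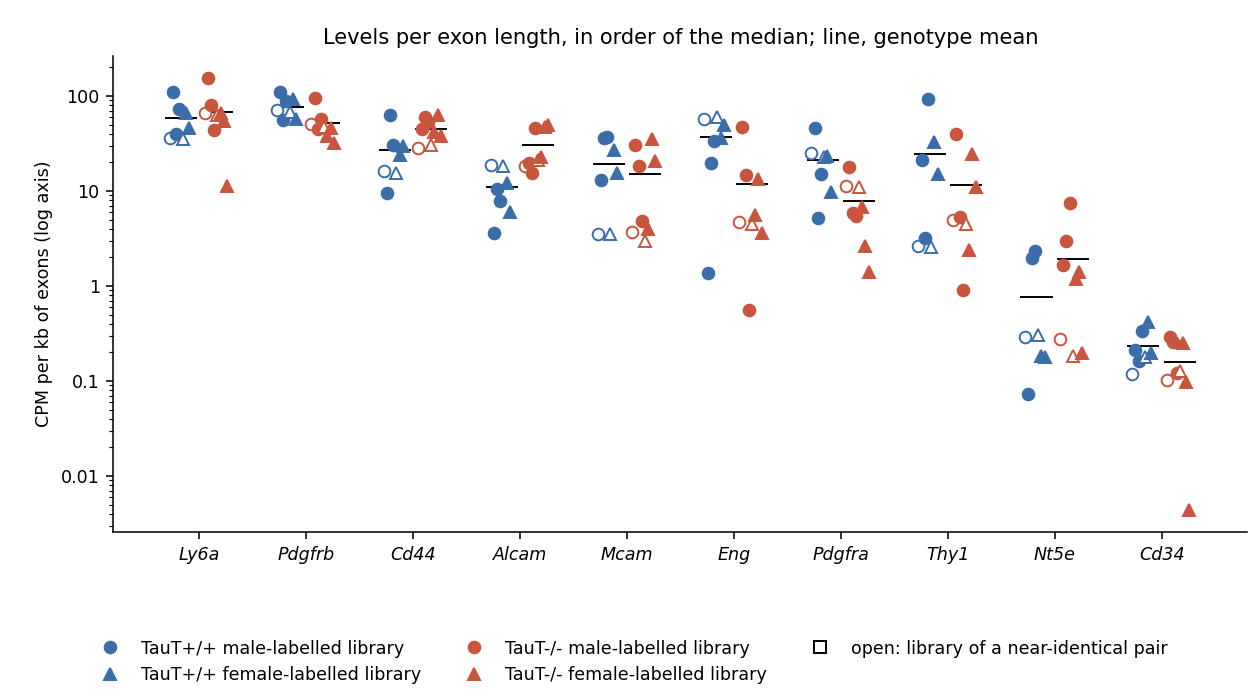
Level of each of the 10 genes in each of the 15 libraries, in CPM per kb of annotated exons on a log axis, ordered by the median over all libraries, with blue for TauT+/+, red for TauT-/-, circles for male-labelled and triangles for female-labelled libraries, open symbols for the near-identical pairs and a line for each genotype's mean. Ly6a and Pdgfrb stand highest at medians of 62.8 and 56.7, while Nt5e and Cd34 lie lowest at 0.302 and 0.178.

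The spread between libraries was large and differed between the genes. Pdgfrb varied least, by 3.48-fold between its lowest and highest library, followed by Cd44 with 6.70-fold. Eng varied by 109-fold, Nt5e by 104-fold and Thy1 by 103-fold over all libraries. Within a genotype the SD of log2 CPM was 0.37 in TauT+/+ and 0.47 in TauT-/- libraries for Pdgfrb, and 2.01 and 1.71 for Thy1.

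**Figure D2:**
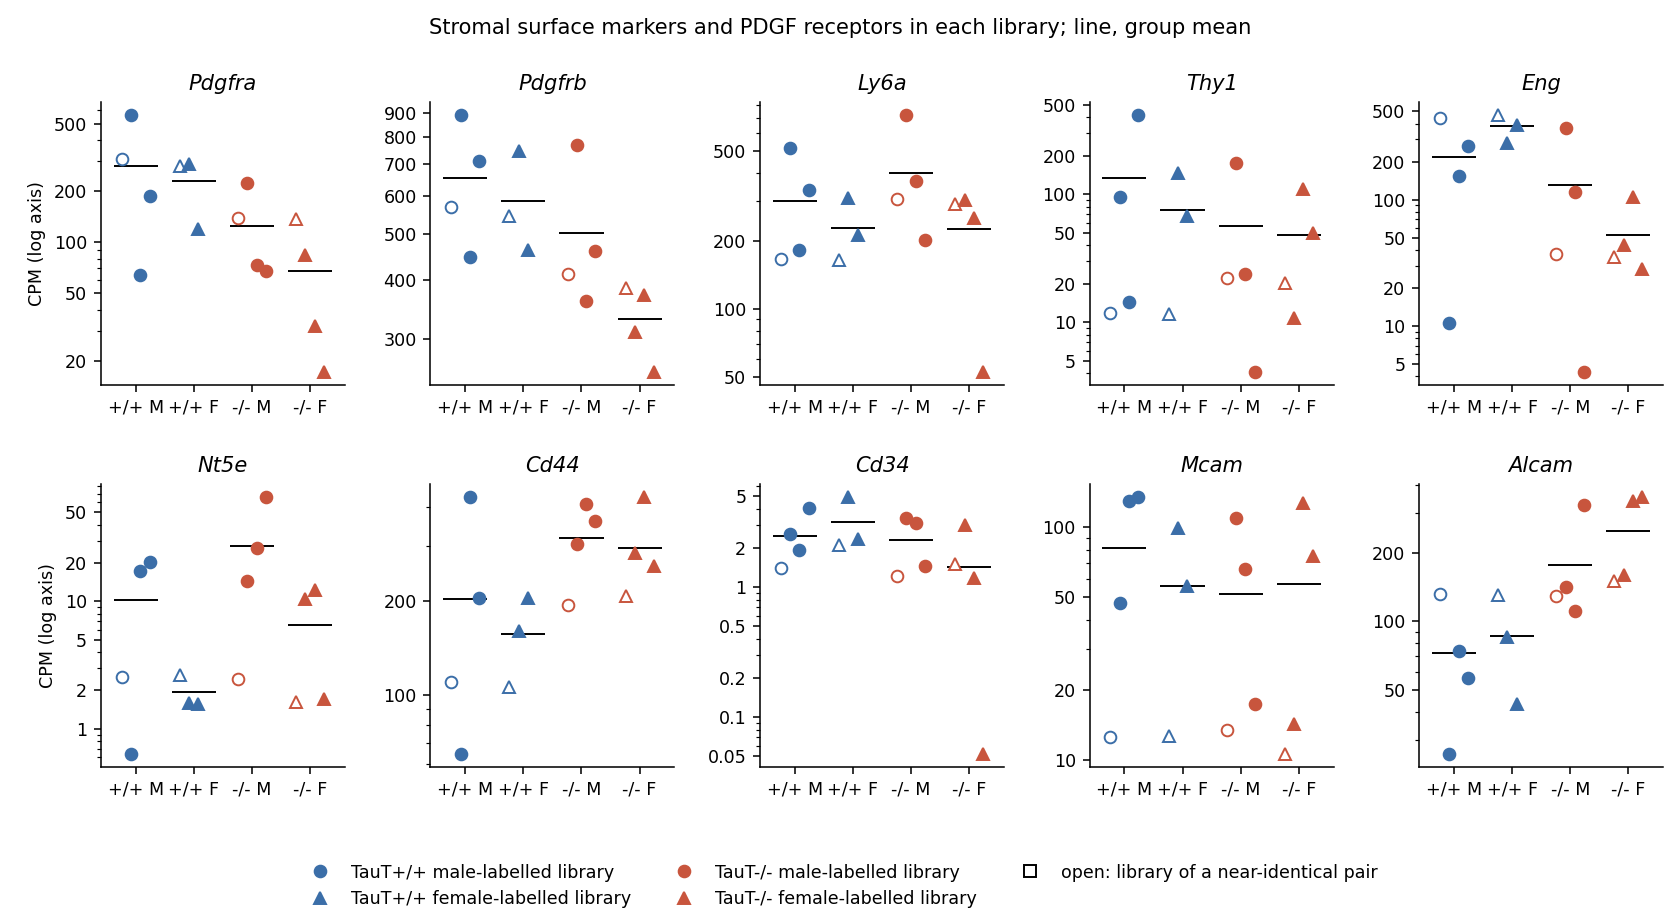
CPM of each gene in each library on a log axis, with 1 panel per gene, the 4 groups of labelled genotype and sex on the x axis (M, male-labelled; F, female-labelled), a line at each group mean and open symbols for the libraries of the near-identical pairs. All 8 TauT-/- libraries lie below the TauT+/+ median for Pdgfra and above it for Cd44 and Alcam, and the genotypes overlap in all 10 panels.

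To determine how TauT loss related to these genes, TauT-/- and TauT+/+ libraries were compared over all 15 libraries with labelled sex in the model. Both PDGF receptors had lower and Alcam and Cd44 had higher values in TauT-/- libraries, with 95% intervals that leave out 0 before any adjustment. The intervals of Eng, Nt5e, Ly6a, Cd34, Mcam and Thy1 included 0. With edgeR, 0 of the 10 genes passed an adjusted p of 0.05 in either direction, against 0.750% of the 17204 tested genes called lower and 0.546% called higher. At an unadjusted p under 0.05 there were 4 of the 10, Pdgfra and Pdgfrb with lower and Cd44 and Alcam with higher values, where 23.6% of all tested genes reached it in either direction. DESeq2, which the study used, called Pdgfra lower and Alcam higher, 1 gene in each direction, against 3.42% of its 33207 genes called lower and 2.92% called higher. Those 33207 are all genes with any count and include genes under the filter on low counts, which all 10 passed. The comparison with these shares is thus not like for like, here and beside the lists below. limma voom called Pdgfra and Pdgfrb lower and Cd44 and Alcam higher, against 4.12% and 3.55% of all tested genes. The genotypes overlapped for all 10 genes, while 0.436% of tested genes were lower and 0.692% were higher in TauT-/- libraries without overlap. The median log2 fold change was -0.46 over the 10 genes and -0.02 over all tested genes.

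Pdgfra (chromosome 5, 75311994 to 75358876, plus strand) encodes the receptor of PDGF-AA and of the C chain. It was at 307, 565, 64.4 and 187 CPM in male-labelled TauT+/+ libraries 1 to 4 and at 282, 289 and 120 CPM in female-labelled TauT+/+ libraries 1 to 3. The corresponding values for TauT-/- were 138, 223, 73.0 and 67.2 CPM in male-labelled libraries 1 to 4 and 137, 83.9, 32.2 and 17.2 CPM in female-labelled libraries 1 to 4. All 8 TauT-/- libraries lay below the TauT+/+ median of 282 CPM, and 4 TauT+/+ libraries lay above the highest TauT-/- library. The male-labelled TauT+/+ library 3 was as low as the TauT-/- libraries. Means were 259 ± 163 CPM (SD, n = 7) and 96.3 ± 66.8 CPM (SD, n = 8), with a log2 fold change of -1.45 (SE 0.49, 95% interval -2.50 to -0.39, adjusted p = 0.108 with edgeR). DESeq2 gave -1.44 with an adjusted p of 0.033. When each library was left out in turn, the edgeR value ran from -1.69 to -1.19 and the adjusted p from 0.044 to 0.211, the latter without the male-labelled TauT+/+ library 2. It passed in 1 of these 15 fits, the one without the male-labelled TauT+/+ library 3 (-1.64). In that fit the calls over all genes rose as well, to 4.88% of 15966 genes lower and 2.98% higher.

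Pdgfrb, on chromosome 18, encodes the receptor for the B and D chains, which is abundant on pericytes and perivascular stroma. Its TauT+/+ values were 569, 892, 446 and 712 CPM in male-labelled libraries 1 to 4 and 545, 748 and 462 CPM in female-labelled libraries 1 to 3. Those of TauT-/- were 412, 771, 361 and 459 CPM in male-labelled and 384, 310, 372 and 256 CPM in female-labelled libraries 1 to 4. Of the 8 TauT-/- libraries, 6 lay below the lowest TauT+/+ library, and the male-labelled TauT-/- library 2 lay above all but 1 of them. Means were 625 ± 164 CPM (SD, n = 7) and 416 ± 156 CPM (SD, n = 8), and the log2 fold change was -0.59 (SE 0.20, 95% interval -1.02 to -0.16, adjusted p = 0.108 with edgeR; DESeq2 adjusted p = 0.0505). Leaving out 1 library gave -0.75 to -0.46 with edgeR adjusted p-values of 0.048 to 0.237, the weakest without the female-labelled TauT+/+ library 2. It passed in 2 of the 15 fits, without the male-labelled TauT-/- library 2 (-0.75, adjusted p = 0.049), where 1.02% of all tested genes were called lower and 0.512% higher, and without the male-labelled TauT+/+ library 3 (-0.68, adjusted p = 0.048), where 4.88% were.

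The ratio of Pdgfra to Pdgfrb within a library does not depend on library scaling. Expressed as log2 of CPM with 0.5 added, its mean was -1.50 ± 0.76 in 7 TauT+/+ and -2.40 ± 0.90 in 8 TauT-/- libraries (SD), a difference of -0.89. All 8 TauT-/- libraries were below the TauT+/+ median. TauT+/+ libraries ran from -2.78 to -0.66 and TauT-/- libraries from -3.86 to -1.49, so the genotypes overlapped. The difference did not pass an exact two-sided permutation test within the sex labels (p = 0.077, 2450 permutations). Over the 15 sets that each leave out 1 library the difference was -1.11 to -0.68 and the exact permutation p 0.028 to 0.149, and only the set without the male-labelled TauT+/+ library 3 (-1.11) had a p under 0.05.

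Alcam (chromosome 16, 52069359 to 52274437, minus strand) encodes CD166, an adhesion molecule of the immunoglobulin superfamily. Its level was 132, 26.0, 74.2 and 56.4 CPM in male-labelled TauT+/+ libraries 1 to 4 and 131, 85.7 and 43.0 CPM in the 3 female-labelled ones. In TauT-/- cultures it was 130, 141, 111 and 328 CPM in male-labelled and 151, 161, 339 and 356 CPM in female-labelled libraries 1 to 4. Of the 8 TauT-/- libraries, 6 were above the highest TauT+/+ library, and the overlap came from the near-identical TauT+/+ libraries 1. Mean levels were 78.3 ± 41.2 CPM (SD, n = 7) and 215 ± 106 CPM (SD, n = 8), with a log2 fold change of 1.41 (SE 0.37, 95% interval 0.61 to 2.21, adjusted p = 0.065 with edgeR). DESeq2 gave 1.43 with an adjusted p of 0.0051. With 1 library left out, edgeR gave 1.22 to 1.66 and adjusted p-values of 0.049 to 0.132, and 1 of the 15 fits passed, that without the male-labelled TauT+/+ library 3 (1.43), where 2.98% of all tested genes were called higher.

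Cd44 (chromosome 2, 102641486 to 102732010, minus strand) encodes the receptor of hyaluronan and is one of the proteins with which the study characterized its cultures. It was at 110, 64.4, 431 and 204 CPM in male-labelled TauT+/+ libraries 1 to 4 and at 106, 160 and 204 CPM in female-labelled ones. In TauT-/- libraries it was at 193, 304, 410 and 360 CPM in male-labelled and at 208, 285, 431 and 259 CPM in female-labelled libraries 1 to 4. Every TauT-/- library exceeded the TauT+/+ median of 160 CPM, and the male-labelled TauT+/+ library 3 was nearly as high as the highest of them. Means were 183 ± 121 CPM (SD, n = 7) and 306 ± 88.2 CPM (SD, n = 8), and the log2 fold change of 0.77 (SE 0.34) had an edgeR adjusted p of 0.190. Without that TauT+/+ library it was 1.12 with an edgeR adjusted p of 0.035, in the fit that called 2.98% of all tested genes higher, and this was the only one of the 15 fits without 1 library that passed. In the others it was as low as 0.63, without the male-labelled TauT+/+ library 2, and the adjusted p as high as 0.295, without the female-labelled TauT+/+ library 1.

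Eng (chromosome 2, 32535543 to 32574661, plus strand) encodes endoglin, an accessory receptor for TGF-β and BMP9. It was at 447, 10.6, 154 and 264 CPM in male-labelled TauT+/+ libraries 1 to 4 and at 472, 281 and 390 CPM in female-labelled ones. TauT-/- libraries had 37.0, 368, 115 and 4.34 CPM under the male label and 34.9, 43.6, 104 and 28.3 CPM under the female label. Each genotype thus held 1 male-labelled library near 10 CPM or below, and 7 of 8 TauT-/- libraries were under the TauT+/+ median of 281 CPM. The log2 fold change was -1.74 (SE 0.82, 95% interval -3.49 to 0.02, adjusted p = 0.216 with edgeR), and it was -2.46 to -1.53 with 1 library left out. On GRCm39 the exons of Eng overlap those of Fpgs on the opposite strand over 860 bases, or 11.0% of their length, and Fpgs had at most 2608 counts in a library. The authors counted by strand, and whether the library preparation kept the strand is not given in the sources used here.

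Nt5e (chromosome 9, 88209089 to 88254146, plus strand) encodes CD73, the enzyme that makes adenosine from AMP outside the cell. Values were low, at 2.56, 0.63, 17.3 and 20.2 CPM in male-labelled and 2.64, 1.61 and 1.57 CPM in female-labelled TauT+/+ libraries. TauT-/- libraries had 2.45, 14.5, 26.1 and 66.2 CPM under the male label and 1.62, 10.5, 12.3 and 1.72 CPM under the female label. Both genotypes held libraries under 3 CPM and libraries over 15 CPM. The log2 fold change of 1.56 (SE 0.77, 95% interval -0.07 to 3.20, adjusted p = 0.231 with edgeR) did not pass, and it was 1.13 to 1.87 with 1 library left out.

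Ly6a (chromosome 15, 74863840 to 74869880, minus strand) encodes SCA-1, the marker with which the study gated MSCs in marrow. It ranged from 164 to 517 CPM (median 211) in TauT+/+ and from 52.8 to 723 CPM (median 298) in TauT-/- libraries, and 6 of 8 TauT-/- libraries were above the TauT+/+ median. The lowest value, 52.8 CPM, came from the female-labelled TauT-/- library 4, which also had the lowest Pdgfra, Pdgfrb and Cd34. The log2 fold change was 0.21 (SE 0.38, 95% interval -0.60 to 1.02, adjusted p = 0.768 with edgeR). It was -0.03 without the male-labelled TauT-/- library 2 and 0.38 without the male-labelled TauT+/+ library 2. Members of the Ly6 family resemble each other, but of the 150-base windows in Ly6a transcripts only 2.11% were also found in transcripts of another gene, Gm28068, which had at most 3 counts in a library. The other 9 genes shared 0 such windows with any other gene.

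Thy1 (chromosome 9, 43954332 to 43959880, plus strand) encodes CD90, a small surface protein held by a lipid anchor. It ranged from 11.7 to 420 CPM (median 67.5) in TauT+/+ and from 4.09 to 177 CPM (median 22.9) in TauT-/- libraries. The male-labelled TauT+/+ library 4 alone held the highest value. The log2 fold change was -0.98 (SE 0.90, adjusted p = 0.528 with edgeR). It was -0.10 without that library and -1.84 without the male-labelled TauT-/- library 2.

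Mcam (chromosome 9, 44045504 to 44054025, plus strand) encodes CD146, which marks perivascular and endothelial cells. It ranged from 12.6 to 135 CPM (median 55.9) in TauT+/+ and from 10.6 to 127 CPM (median 41.7) in TauT-/- libraries, with both near-identical pairs at the bottom of the range. The log2 fold change was -0.35 (SE 0.68, adjusted p = 0.792 with edgeR). It was -0.69 without the female-labelled TauT-/- library 3 and -0.11 without the female-labelled TauT+/+ library 2. Exons of Gm10687 on the opposite strand overlap 15.3% of its exon length, with at most 163 counts in a library.

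Cd34 (chromosome 1, 194621029 to 194647172, plus strand) was the least expressed of the 10 genes per kb, at 1.41 to 4.97 CPM (median 2.35) in TauT+/+ and 0.052 to 3.44 CPM (median 1.49) in TauT-/- libraries. The lowest of these, in the female-labelled TauT-/- library 4, is a single count, and 1 count stood for 0.010 to 0.077 CPM depending on the library. The log2 fold change was -0.57 (SE 0.52, adjusted p = 0.534 with edgeR), from -0.77 without the female-labelled TauT-/- library 2 to -0.30 without the female-labelled TauT+/+ library 2.

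**Figure D3:**
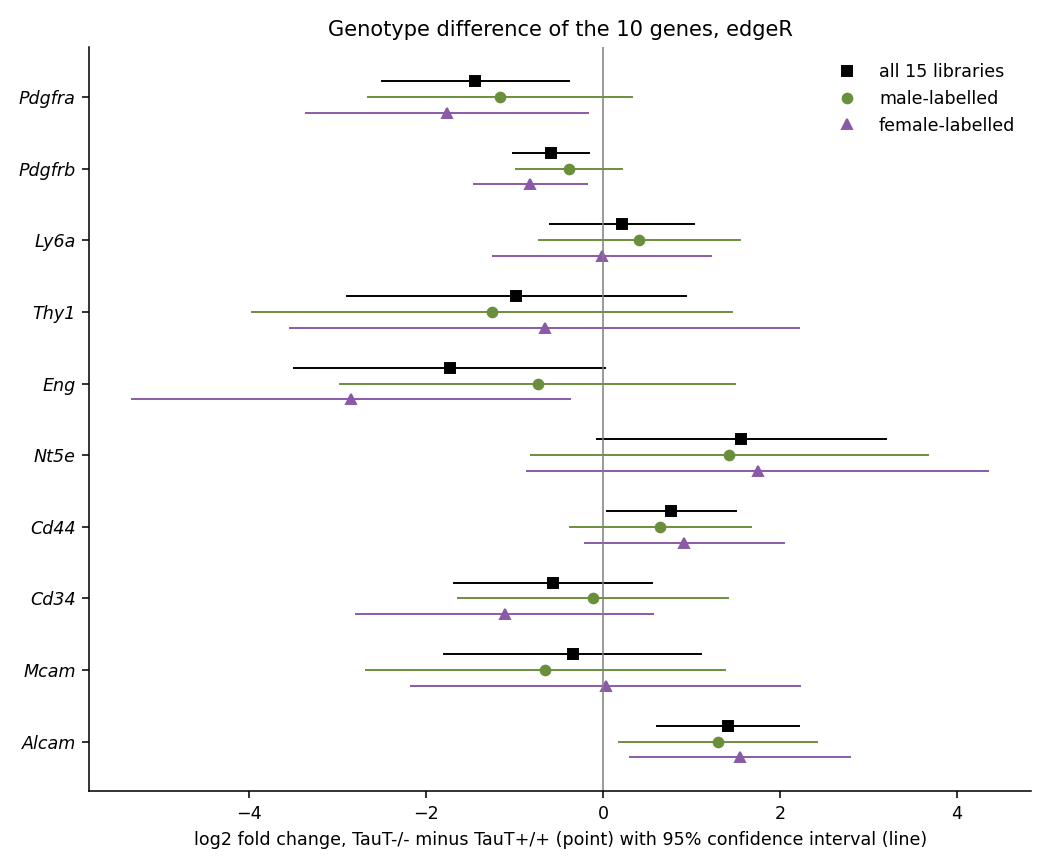
Log2 fold change of TauT-/- minus TauT+/+ for each of the 10 genes with edgeR, with a point for the estimate and a line for its 95% confidence interval, over all 15 libraries and within each sex label. For Pdgfra, Pdgfrb, Cd44 and Alcam the interval over all libraries does not include 0, at -1.45, -0.59, 0.77 and 1.41, while 0 of the 10 pass after adjustment over all genes.

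These values were then compared without the libraries in doubt. When each near-identical pair was reduced to 1 library, the log2 fold change of Pdgfra was -1.50 when the female-labelled and -1.55 when the male-labelled libraries were kept, and it was -1.60 without the 3 libraries with contradicting Xist and Ddx3y. The corresponding values of Alcam were 1.70, 1.65 and 1.61, and those of Pdgfrb were -0.62, -0.58 and -0.63. In each of these fits edgeR called 0 of the 10 genes, and of all tested genes it called 0 lower and 0.0139%, 0.0399% and 0% higher. Of the 10, 4, 3 and 4 had an unadjusted p under 0.05, Alcam and both receptors each time. Of all genes tested in these fits, 22.8%, 20.7% and 19.2% had an unadjusted p under 0.05. Eng had -1.52, -1.39 and -1.33.

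Within the sex labels, the effects of Pdgfra, Pdgfrb, Cd44 and Alcam had the same sign in male-labelled and female-labelled MSCs. Each near-identical pair has 1 library under each label, and Xist and Ddx3y contradicted the label of 3 libraries. The labels may thus share samples, and a difference between them need not be one of sex. Pdgfra had a log2 fold change of -1.17 (SE 0.69) in male-labelled and -1.77 (SE 0.74) in female-labelled libraries, and Alcam had 1.30 (SE 0.52) and 1.54 (SE 0.58). Pdgfrb had -0.39 (SE 0.28) and -0.82 (SE 0.30), and Cd44 had 0.65 (SE 0.47) and 0.92 (SE 0.52). Eng was the most uneven of the 10, at -0.74 (SE 1.04) and -2.85 (SE 1.15). After adjustment with edgeR 0 of the 10 genes passed within either label, where 0 of all 17204 genes passed. Unadjusted p was under 0.05 for 1 of the 10 in male-labelled libraries, Alcam, and for 4 in female-labelled libraries, Pdgfra, Pdgfrb, Eng and Alcam, against 8.62% and 14.6% of all tested genes. DESeq2 called 43 lower and 33 higher genes in male-labelled and 210 and 200 in female-labelled libraries, with 0 of the 10 among them. The difference between the labels, female minus male, was tested directly. It was -0.60 (SE 1.01) for Pdgfra, -0.44 (SE 0.41) for Pdgfrb and -2.11 (SE 1.52, 95% interval -5.39 to 1.16) for Eng. None of the 10 passed with edgeR, and 0 had an unadjusted p under 0.05, against 1.41% of all tested genes.

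Across the 15 libraries the 2 PDGF receptors varied together. Their log2 CPM had a Pearson r of 0.85 and a Spearman rho of 0.81 (n = 15), with an r of 0.80 in TauT+/+ and 0.74 in TauT-/- libraries, 0.83 under the male and 0.85 under the female label, 0.87 with 13 libraries and 0.80 without the 2 libraries farthest from the median of Pdgfra. Pdgfra and Cd44 ran in opposite directions, with r = -0.78 and rho = -0.82 over the 15 libraries, -0.96 in TauT+/+ and -0.35 in TauT-/- libraries. Pdgfra and Alcam had r = -0.68 and rho = -0.51, with -0.10 in TauT+/+ and -0.78 in TauT-/- libraries. Without the 2 libraries farthest from the median of Pdgfra, its r was -0.90 with Cd44 and -0.46 with Alcam. Other pairs with an r over 0.7 were Ly6a with Cd34 (0.77), Nt5e with Cd44 (0.74) and Thy1 with Mcam (0.73). Without the 2 libraries farthest from the median of the first gene of each pair, these were 0.43, 0.70 and 0.66. The points include both near-identical pairs and 2 depths, and these values are given as a description of the libraries. Over 13199 tested genes with a mean of at least 1 CPM, those most like Pdgfra by Pearson r were Ttc30b, Fam13c and Gnao1, each at 0.97, and those most like Pdgfrb were Ccdc170 (0.93), Tgtp2 (0.93) and Phkg1 (0.92).

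**Figure D4:**
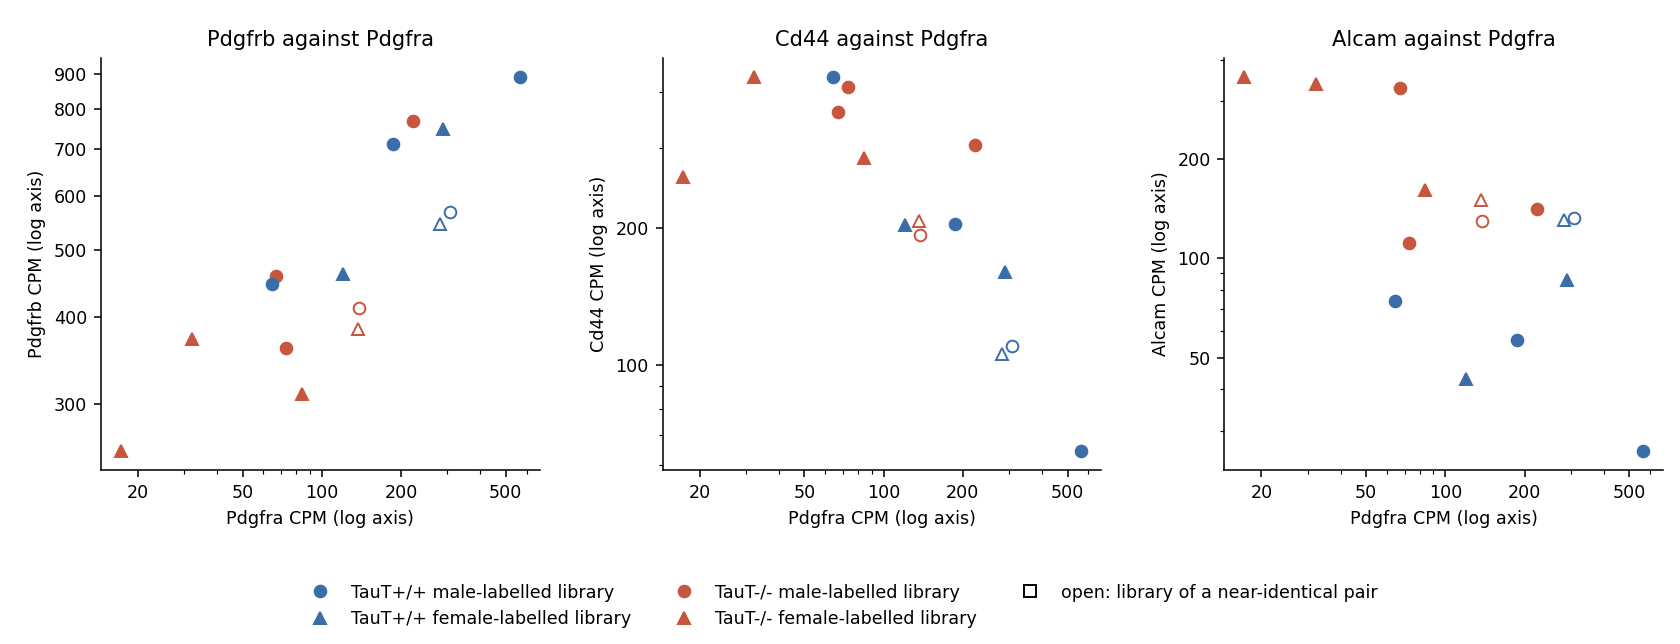
CPM of Pdgfrb, Cd44 and Alcam against CPM of Pdgfra in the 15 libraries, on log axes, with blue for TauT+/+, red for TauT-/-, circles for male-labelled and triangles for female-labelled libraries and open symbols for the near-identical pairs. Pdgfrb follows Pdgfra (r = 0.85), while Cd44 (r = -0.78) and Alcam (r = -0.68) run against it over all libraries. Within TauT+/+ and TauT-/- libraries the r was -0.96 and -0.35 for Cd44 and -0.10 and -0.78 for Alcam.

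Of the 4 PDGF ligands, 0 passed with edgeR or DESeq2 in either direction and 0 had an unadjusted edgeR p under 0.05, against 23.6% of all tested genes. Pdgfa, whose product binds PDGFRα, was at 56.9 ± 30.0 CPM in 7 TauT+/+ and 72.4 ± 18.9 CPM in 8 TauT-/- libraries (SD), with a log2 fold change of 0.37 (SE 0.30, adjusted p = 0.480 with edgeR). Pdgfb, whose product binds both receptors, was at 36.7 ± 15.5 and 54.9 ± 29.4 CPM and had a log2 fold change of 0.58 (SE 0.39, adjusted p = 0.379 with edgeR). Pdgfc and Pdgfd, whose products need proteolytic activation, had log2 fold changes of 0.27 (SE 0.54) and -0.46 (SE 0.48). All 4 ligands were detected in every library, from 5.17 CPM of Pdgfc to 109 CPM of Pdgfb.

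Among 36 genes of PDGF receptor signalling and feedback, 1 was lower and 0 were higher with edgeR, beside 0.750% and 0.546% of all tested genes, and their median log2 fold change was 0.08. The lower gene was Pik3r1, which encodes the p85α regulatory subunit of PI3-kinase that docks on the activated receptor. TauT+/+ libraries had 326 ± 130 CPM of it (SD, n = 7) and TauT-/- libraries 154 ± 21.4 CPM (SD, n = 8), with a log2 fold change of -1.08 (SE 0.22, adjusted p = 0.035 with edgeR). This call was lost in 17 of 29 alternatives, while its log2 fold change stayed between -1.19 and -0.77. DESeq2 called 5 of the 36 lower and 3 higher, against 3.42% and 2.92% of all its genes, and they are named here after their values were seen. Beside Pik3r1, the lower ones were Fos and Egr1, immediate early genes induced by growth factors, at -1.94 and -1.63, Spry1, a feedback inhibitor of receptor tyrosine kinases, at -1.54, and the adaptor Gab1 at -0.74 (all DESeq2 log2 fold changes). Myc (0.88), the adaptor Grb2 (0.56) and the kinase Mapk3 (0.29) were the higher ones. With edgeR these 7 had adjusted p-values of 0.062 to 0.114.

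Other surface and partner genes were read from the same fit, in which 23.6% of all tested genes had an unadjusted p under 0.05. Of the 5 genes for the proteins with which the study gated or characterized MSCs, Itgav (CD51), Itgb1 (CD29), Ly6a, Cd44 and Eng, 0 passed with edgeR, and 1, Cd44, had an unadjusted p under 0.05. Itgb1 was at 1165 to 2363 CPM and Itgav at 209 to 450 CPM over all libraries. Of 20 tested genes among 21 other stromal surface genes, 0 passed with edgeR and 4 had an unadjusted p under 0.05. Those with the smallest p were Vcam1, an adhesion molecule of marrow stroma, with a log2 fold change of -1.90 (SE 0.50, adjusted p = 0.065 with edgeR), and the tetraspanin Cd63, with 0.40 (SE 0.11, adjusted p = 0.073 with edgeR). Among 22 tested of 24 ligands and partners of the 10 proteins, 0 passed with edgeR and 5 had an unadjusted p under 0.05. The smallest p belonged to Tgfbr2, which encodes the TGF-β receptor that acts with endoglin, at 0.73 (SE 0.21, adjusted p = 0.074 with edgeR), and to its ligand Tgfb1 at 0.63 (SE 0.20, adjusted p = 0.092 with edgeR). Of 11 genes of the Ly6 family beside Ly6a, 5 were tested, 0 passed with edgeR and 2 had an unadjusted p under 0.05. Ly6f and Ly6d, at means of 0.36 and 0.55 CPM in TauT+/+ and 0.07 and 0.17 CPM in TauT-/- libraries, were those 2.

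Markers of other cells were examined beside the 10 genes. Macrophage and myeloid markers were higher in value for 23 of 24 genes in TauT-/- libraries, and 2 of them, Cd68 and Ctss, passed with edgeR. An unadjusted p under 0.05 was reached by 17 of the 24, all of them higher, against 23.6% of all tested genes, and DESeq2 called 9 higher and 0 lower, against 2.92% and 3.42% of all its genes. Cd68, a lysosomal glycoprotein of macrophages, was at 181 ± 85.5 CPM in 7 TauT+/+ and 524 ± 276 CPM in 8 TauT-/- libraries (SD), with a log2 fold change of 1.46 (SE 0.33, adjusted p = 0.045 with edgeR). Ctss, which encodes the protease cathepsin S, had a log2 fold change of 2.07 (SE 0.47, adjusted p = 0.047 with edgeR). Each of these calls was lost in 21 of 29 alternatives. The sum of the 24 markers was 1617 to 11131 CPM (median 9418) in TauT+/+ and 7633 to 27097 CPM (median 17798) in TauT-/- libraries, with 0 of 24 under 1 CPM throughout. Ptprc, which encodes CD45, was at 27.9 to 370 CPM in these cultures sorted for cells without CD45. In bulk RNA, fewer cells of a type and less RNA per cell cannot be told apart. Over the 15 libraries, log2 CPM of Pdgfra had an r of -0.78 with the log2 sum of these markers (-0.65 in TauT+/+, -0.73 in TauT-/- libraries), Pdgfrb had -0.74, Cd44 had 0.75 and Alcam had 0.78, while Eng had 0.05 and Mcam 0.03. Within the genotypes Eng had 0.92 in TauT+/+ and -0.09 in TauT-/- libraries, and Mcam had -0.07 and 0.46. When the mean log2 level of these markers entered the edgeR model, it gave log2 fold changes of -0.85 for Pdgfra, -0.38 for Pdgfrb, 0.17 for Cd44, 0.76 for Alcam and -0.09 for Nt5e, and -3.06 for Eng. None of the 10 passed, and only Eng had an unadjusted p under 0.05. Over all genes in that fit 0 passed, and 1147 lower and 772 higher genes had an unadjusted p under 0.05. Because the markers themselves differed with genotype, this fit does not fully separate marker level from genotype. Whether macrophage content accounts for the smaller values was not tested.

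**Figure D5:**
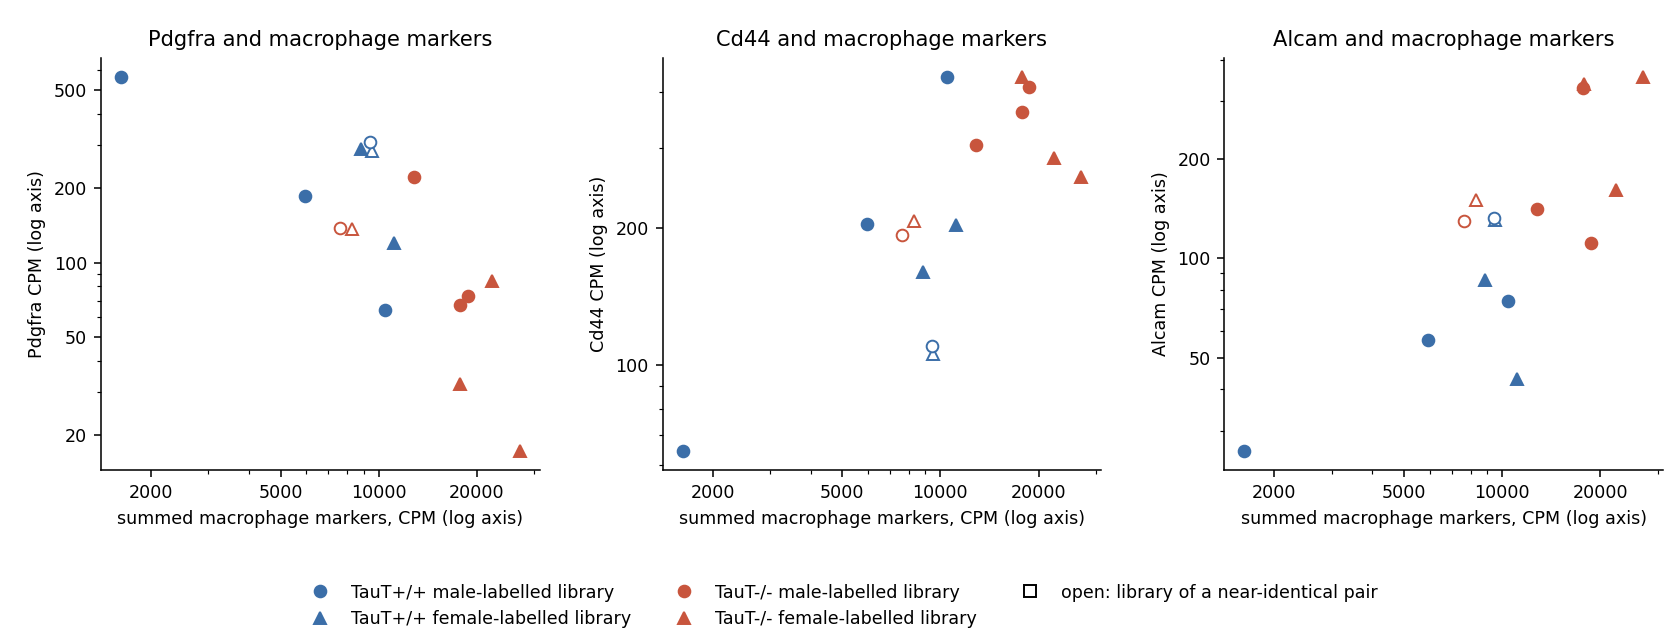
CPM of Pdgfra, Cd44 and Alcam against the summed CPM of 24 macrophage and myeloid markers in each library, on log axes, with blue for TauT+/+, red for TauT-/-, circles for male-labelled and triangles for female-labelled libraries and open symbols for the near-identical pairs. Libraries with more marker RNA had less Pdgfra (r = -0.78) and more Cd44 (r = 0.75) and Alcam (r = 0.78).

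Of 14 stromal identity genes, Col1a1 and Prrx1 were abundant in all libraries, at 2323 to 22911 CPM and 161 to 633 CPM. Others were not, and Dcn ran from 1.60 to 114 CPM in TauT+/+ and from 0.79 to 23.4 CPM in TauT-/- libraries. The 14 genes summed to 48980 to 70554 CPM in TauT+/+ and 16105 to 72405 CPM in TauT-/- libraries. Of the 14, 13 had lower values in TauT-/- libraries, 0 passed with edgeR and 2 had an unadjusted p under 0.05, at a median log2 fold change of -0.52. Over all tested genes, to be set beside this and the following lists, 23.6% had an unadjusted p under 0.05. The median log2 fold change over all tested genes was -0.02. The smallest p belonged to Dcn, which encodes the matrix proteoglycan decorin, at -2.67 (SE 0.99, adjusted p = 0.127 with edgeR), and to Prrx1, a transcription factor of limb mesenchyme, at -0.55 (SE 0.24, adjusted p = 0.183 with edgeR). The female-labelled TauT-/- library 4, which was lowest in Pdgfra, Pdgfrb, Ly6a and Cd34, also had the lowest sum of stromal genes, 16105 CPM, and the highest sum of macrophage markers, 27097 CPM. Of 10 mural and smooth muscle genes, 8 had lower values, 0 passed with edgeR and 3 had an unadjusted p under 0.05. Abcc9 and Kcnj8, the channel subunits of pericytes, had log2 fold changes of -4.68 (SE 1.23, adjusted p = 0.064 with edgeR) and -3.76 (SE 1.20, adjusted p = 0.094 with edgeR). Abcc9 ran from 1.06 to 249 CPM in TauT+/+ and from 0.31 to 9.07 CPM in TauT-/- libraries. Kcnj8 was near the floor, at 0.011 to 8.46 and 0.011 to 0.91 CPM. With 1 library left out, the fold changes were -5.03 to -2.49 for Abcc9 and -4.34 to -1.40 for Kcnj8. Endothelial markers summed to 16.4 to 29.8 CPM in TauT+/+ and 16.5 to 238 CPM in TauT-/- libraries, with Cdh5 under 1 CPM in all of them and Pecam1 (CD31) at 6.46 CPM or less. Of the 9 tested of 14, 0 passed with edgeR and 3 had an unadjusted p under 0.05, and Kdr (2.14, SE 0.52, adjusted p = 0.056 with edgeR) and Flt1 (3.11, SE 1.30, adjusted p = 0.169 with edgeR) had the smallest p. All 8 lymphoid markers were under 1 CPM and untested. Of 8 erythroid markers 3 were tested, 0 passed with edgeR and 1 had an unadjusted p under 0.05, and the genes with the smallest p were Epor (-1.72, SE 0.62, adjusted p = 0.120 with edgeR) and Tfrc (0.28, SE 0.35, adjusted p = 0.655 with edgeR).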

How the data were processed

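Bulk RNA-sequencing was carried out on 15 libraries of cultured MSCs. Per the labels and the study's methods, full-length cDNA was amplified from poly(A) RNA, reads were filtered with fastp 0.23.1, mapped with STAR 2.7.9a to GRCm39 with GENCODE M31, and counted on genes by strand with featureCounts of Subread 2.0.1. The authors deposited these counts per gene as whole numbers without normalization, and every column was mapped to a sample by its title.

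The counts were analysed with edgeR 4.0.16 in R 4.3.3 (TMM, filterByExpr, quasi-likelihood test, Benjamini-Hochberg adjustment over all tested genes) with labelled sex and genotype, or 1 term per group, in the model. DESeq2 1.42.0, limma 3.58.1 (voom with sample weights), other scalings, filters, covariates and library subsets were alternatives. Genes with no adjusted p from DESeq2 were left uncalled. Intervals are 95% confidence intervals. The receptor ratio was tested by exact permutation, as distance from the mean of the permuted differences. Scripts were tested on simulated data. Positions, exon lengths and transcripts come from GENCODE M39, and promoters from RefSeq. SciPy 1.17.1 in Python 3.11.15 was used for the rest.

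The 10 genes and the gene lists were chosen with earlier results of these data known. Named are the 10 genes, 4 PDGF ligands, Slc6a6, Xist and Ddx3y, in each list the genes that passed or else the 2 with the smallest p, and the 3 genes most like each receptor. The study's methods name a human reference, while the build and annotation given are those of the mouse. The result of 1 gene of the lists is not reported here.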

Additional observations from a re-analysis of the deposited data

Results flagged for a closer look

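One value stood apart from its group. Ly6a in the female-labelled TauT-/- library 4 was 52.8 CPM, against 253 to 304 CPM in the other 3 libraries of that group, and the gap to the next library took up 0.895 of the group's range on the log2 scale, above Dixon's 95% critical value for 4 libraries. This was 1 of 45 groups examined, for the 10 genes, the 4 PDGF ligands and the receptor ratio in the 3 groups of 4 libraries, and chance alone flags about 1 in 20 groups.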

How the results depend on the processing

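Of 289 values of the 10 genes over all libraries under the alternatives, 273 kept their direction and their side of the threshold, 12 passed it and 4 changed sign. The sign changes were Ly6a with female-labelled libraries alone (-0.0083) and without the male-labelled TauT-/- library 2 (-0.033, where leaving out 1 library gave -0.033 to 0.381), Nt5e with the macrophage covariate (-0.089) and Mcam with female-labelled libraries alone (0.059). Eng within the male label changed sign to 0.16 with 13 libraries, the female-labelled ones kept, and to 0.21 with 12 libraries. With the macrophage covariate Pdgfb (-0.44), Pdgfc (-0.41) and Tfrc (-0.44) also changed sign. The cause was not tested.

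Of the 10 genes, limma voom called 2 lower and 2 higher, DESeq2 1 and 1, and leaving out 1 library called 0 to 2 lower and 0 to 2 higher, the highest without the male-labelled TauT+/+ library 3. Over all genes, lower and higher calls were 129 and 94, and 1136 and 968 with DESeq2, 708 and 611 with limma voom, 258 and 188 without the sex term, 42 and 32 without a filter, and 200 lower with at least 10 counts in every library, a filter that leaves out Cd34. There were 0 and 0 with the macrophage covariate, with male-labelled or female-labelled libraries alone and with 12 libraries, 0 and 2 with 13 libraries if the female-labelled of each close pair stayed in and 0 and 7 if the male-labelled did, and 4 to 779 lower and 8 to 476 higher when 1 library was left out. Within the male label DESeq2 called 43 lower and 33 higher, within the female label 210 and 200, and 2 genes for the difference between labels. Leaving out 1 library with edgeR gave 0 to 1 lower and 0 higher within the male label, and 0 to 1 lower and 0 to 3 higher within the female label.

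With the replicate number as a block, edgeR called 1 of the 10 genes lower, Pdgfra at -1.23 (adjusted p = 0.047), and the receptor ratio differed by -0.68 over 7 pairs, with an exact sign-flip permutation p of 0.031. Same-numbered libraries had correlations of their deviations from -0.03 to 0.61, above 0.1 for all 4 male-labelled and 1 of 3 female-labelled pairs. That female-labelled pair was number 1 (0.25), whose libraries were near-identical to those of the male-labelled pair 1. Counts over the 7 pairs may thus hold 1 pair more than once. The labels give no shared litter, batch or day, and because 2 pairs were below 0.1 the numbers were not taken to pair the libraries. As a hint from the data, 5 of 7 TauT+/+ libraries, all 4 male-labelled and 1 of 3 female-labelled, deviated most like the TauT-/- library of their own number. Leaving out 1 library gave ratio differences of -1.11 to -0.68 (exact permutation p of 0.028 to 0.149). Counts were lowest for Cd34, at 1 count in the female-labelled TauT-/- library 4 and 17 counts in library 3 of that group. Library 4 had the highest total of the female-labelled libraries, 20781070, so its single count is not explained by depth alone. Nt5e was also low, with 21 counts in the female-labelled TauT+/+ library 2.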
